A study of Mus musculus with 16 samples.

Results

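SNARE genes were followed across RNA that an antibody to MYF5 or a control IgG recovered from C2C12 cells. SNARE proteins are the membrane proteins whose helices zip together and fuse a vesicle with its target. Members were taken by gene symbol in the platform annotation: syntaxins (Stx with a digit), Vamp, Gosr, Bet1, Sec22 and Vti1 genes, Ykt6, Use1, Bnip1, Snap23, Snap25, Snap29 and Snap47. The rule uses no measured value and found 63 of 25697 probes, for 36 of 16590 named genes. Of these, 56 probes of 34 genes passed the detection filter (detection p under 0.05 on at least 4 of 16 arrays), and all 56 were tested. Snap25, the neuronal light chain, was detected on 0 of 16 arrays and Stx19 on 2, so neither gene was tested.

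C2C12 cells are mouse myoblasts that stop dividing and merge into multinucleate myotubes in low serum. MYF5 is an early myogenic regulator known for binding DNA as a dimer with E proteins. The 4 groups were GM_IgG and GM_MYF5, from proliferating cells in growth medium with fetal bovine serum, and DM_IgG and DM_MYF5, from cells moved to differentiation medium with horse serum, each with 4 arrays. Cleared detergent lysates (cytoplasmic extracts) were incubated with coated protein A beads. RNA eluted from the beads was copied with oligo-dT priming and hybridised to Illumina bead arrays. All cells are 1 line with no genetic change named in the labels, and input RNA was not analysed here. The labels do not state separate cultures for the replicates, so p-values measure only the spread between these arrays, which may be technical.

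A fusing pair of membranes is bridged by a bundle of helices named Q or R after a central glutamine or arginine. Syntaxins give the Qa helix, proteins of the Gosr, Vti1, Bet1 and Stx6 type give Qb and Qc helices, and Snap proteins give Qb and Qc in one chain. Vamp, Sec22b and Ykt6 proteins give the R helix. Sec22a and Sec22c were placed in the R group by family name alone. Each trafficking step uses its own set. In muscle, the Stx4, Snap23 and Vamp2 set is known for carrying the glucose transporter GLUT4 to the surface, while other sets serve secretion, lysosomes and autophagy.

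Mean signal ranged from 324 to 581 between arrays, and 46.4% to 50.9% of probes were detected. Normalized log2 values correlated at r of 0.986 to 0.998 between arrays of a group and 0.915 to 0.985 between groups. The log2 gap between probes ILMN_2698799 and ILMN_2588055 of Actb, the beta-actin gene, was 6.42 ± 1.53 (SD, n = 4) in GM_IgG, 3.94 ± 0.52 in GM_MYF5, 4.73 ± 0.81 in DM_IgG and 2.61 ± 0.76 in DM_MYF5, so it was narrower with anti-MYF5 in each medium. Of 9 markers fixed for myoblasts and muscle, 7 were on the array and 6 were detected on at least 4 arrays. The remaining marker on the array was Myf5 itself, detected on 1 array. Its mean signals were 75 in GM_IgG, 77 in GM_MYF5, 58 in DM_IgG and 61 in DM_MYF5. The summed signal of the 7 markers was 4079 to 5408 in GM_IgG, 3054 to 5659 in GM_MYF5, 49035 to 57816 in DM_IgG and 24230 to 35767 in DM_MYF5. Of 9 neuronal and neurosecretory markers 3 were detected on at least 4 arrays, with sums of 2050 to 2727, 2140 to 3110, 1464 to 1713 and 1280 to 1652 in the same group order, with Syn1 and Stmn2 detected on all 16 arrays and Syn2 on 8. Tubb3 was detected on 2 arrays, and Syp, Rbfox3, Nefl, Sv2a and Chga on 0. The blood markers summed to 669.5 to 855.3, 326.3 to 421, 238.2 to 263.7 and 207.3 to 228.8 in that order, of which the haemoglobin gene Hba-a1 had mean signals of 531, 178, 78 and 59.2. The part of these marker levels in the SNARE values was not tested. For blood 1 of 3 markers present, for epithelium and liver 1 of 4, and for adipocytes 0 of 4 were detected on at least 4 arrays.

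The first question was which SNARE RNAs anti-MYF5 recovered beyond the IgG background. In growth medium 14 of 34 SNARE genes were higher with anti-MYF5 and 8 were lower, led by Ykt6 and Stx2 on the one side and Vamp8 and Use1 on the other. In differentiation medium 19 were higher and 9 lower. Each gene stands by its brightest probe, and calls are limma's at a Benjamini-Hochberg adjusted p under 0.05 over all 13884 probes tested. Over all 9429 tested genes the shares were 26.3% higher and 22.4% lower in growth medium, against 41.2% and 23.5% for SNARE genes. In differentiation medium they were 27.7% and 26.6%, against 55.9% and 26.5%. The share of SNARE genes called lower was thus near the background in both media. The median log2 fold change over SNARE genes was 0.22 in growth medium and 0.37 in differentiation medium, against 0.04 and 0.02 over all tested genes.

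All 22 SNARE genes called in growth medium were called in the same direction in differentiation medium, where they made up 78.6% of the 28 called. These comparisons share no array. Over all genes, 76% of the 4591 called in growth medium were called the same way in differentiation medium, or 68.2% of the 5116 called there. Called in differentiation medium and not in growth medium were Bet1, Stx7, Vamp1, Vamp2 and Vamp4, higher, and Stx18, lower. Of these 6 genes, a difference between the media passed its own test for Vamp4 alone. The 6 genes called in neither medium were Sec22a, Sec22b, Stx16, Stx4a, Stx6 and Vamp7. With no scaling between arrays, 4 of the 22 growth medium calls and 9 of the 28 differentiation medium calls ended, none of them with a turned sign. The split of higher to lower calls then moved to 18 and 4 in growth medium and 11 and 8 in differentiation medium. Bet1, Stx7, Vamp1 and Vamp2 were then called higher in growth medium too. No scaling moved the median of all probes to 0.32 in growth medium and -0.02 in differentiation medium. Shares of all genes called were counted under the main scaling alone, so this split has no background beside it. With the Actb gap in the model, 20 of 22 and 23 of 28 calls remained.

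**Figure D1:**
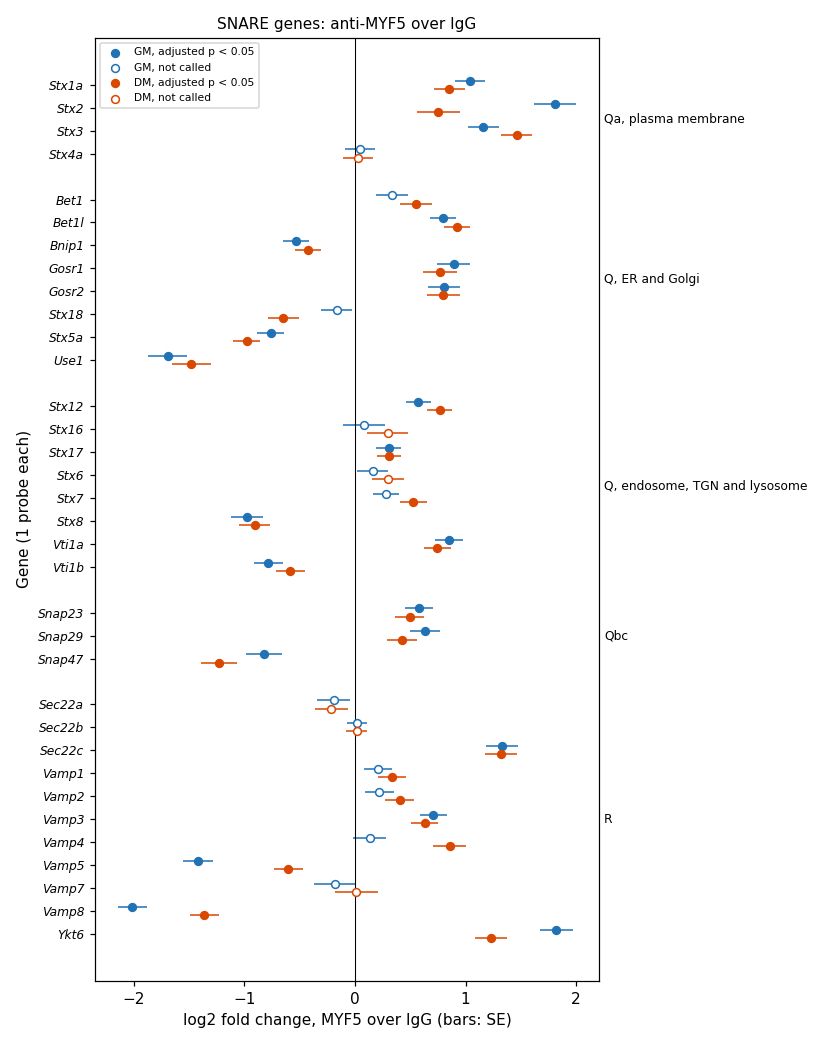
Log2 fold change of anti-MYF5 over IgG (x axis, bars are the SE) for the 34 tested SNARE genes in growth medium (GM, blue) and differentiation medium (DM, orange), grouped by role, with filled points for adjusted p under 0.05. Vamp8 lies farthest to the left in growth medium at -2.01 and Ykt6 farthest to the right at 1.82, and the 22 genes called in growth medium lie on the same side in both media.

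Among syntaxins of the plasma membrane, Stx1a, Stx2 and Stx3 were higher with anti-MYF5 in both media and Stx4a was not called. Stx2, also known as epimorphin, has been linked to epithelial shape and to the end of cell division. Its log2 signal was 5.21, 5.67, 5.79 and 6.19 on GM_IgG arrays 1 to 4 and 7.30, 7.63, 7.29 and 7.87 on GM_MYF5 arrays. In differentiation medium it read 4.82, 4.89, 4.58 and 4.66 with IgG and 5.33, 5.12, 5.54 and 5.96 with anti-MYF5. Every anti-MYF5 array lay above every IgG array of its medium, and the probe was detected on 2 of the 4 DM_IgG arrays. Stx2 was 3.5-fold higher in growth medium (log2 fold change 1.81, SE 0.19, adjusted p = 1.2e-07) and 1.69-fold higher in differentiation medium (0.75, SE 0.19, adjusted p = 0.0023). The latter call ended with the Actb gap in the model (0.53, adjusted p = 0.079).

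Stx3 serves apical delivery in epithelia and exocytosis in several cell types. It read 8.33, 8.22, 8.25 and 7.77 on the GM_IgG arrays and 9.42, 9.39, 9.38 and 9.02 on the GM_MYF5 arrays. The DM_IgG values were 6.16, 6.48, 6.32 and 6.35, and the DM_MYF5 values 8.0, 7.86, 7.75 and 7.53. GM_MYF5 was highest and DM_IgG lowest, and each medium's anti-MYF5 arrays lay above its IgG arrays. The fold was 2.24 in growth medium (log2 fold change 1.16, SE 0.14, adjusted p = 7.4e-07) and 2.75 in differentiation medium (1.46, SE 0.14, adjusted p = 5.0e-08). A second Stx3 probe, ILMN_3107114, was higher by 1.39 and 0.99. Stx1a, the syntaxin of neuronal exocytosis, was higher by 1.04 (SE 0.14) and 0.85 (SE 0.14). Stx4a, the syntaxin of GLUT4 delivery, stood at 0.04 (SE 0.14, adjusted p = 0.82) and 0.03 (SE 0.14, adjusted p = 0.89).

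SNAREs of the endoplasmic reticulum and Golgi were called in both directions, as were all tested genes. Of 8 tested Q genes, Bet1l, Gosr1 and Gosr2 were higher with anti-MYF5 in both media, Bet1 was higher in differentiation medium, and Use1, Stx5a and Bnip1 were lower in both. With Stx18, lower in differentiation medium, the shares were 37.5% higher and 37.5% lower in growth medium and 50% and 50% in differentiation medium. Those of all tested genes were 26.3% and 22.4%, then 27.7% and 26.6%. Stx5a, called lower, is the Qa syntaxin that pairs with Gosr1, Gosr2, Bet1 and Bet1l within the Golgi. Gosr1 was higher by 0.89 (SE 0.15) and 0.77 (SE 0.15), Gosr2 by 0.80 (SE 0.15) in both media, and Bet1l by 0.80 (SE 0.12) and 0.92 (SE 0.12). Stx5a was lower at -0.76 (SE 0.12) and -0.98 (SE 0.12). The growth medium call of Stx5a ended with no scaling (-0.36, adjusted p = 0.19). Bet1, higher by 0.55 (SE 0.14) in differentiation medium, lost its call under median scaling, no scaling and the Actb gap in the model (adjusted p = 0.067, 0.093 and 0.056).

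Use1, Bnip1 and Stx18 are the Q-SNAREs that receive vesicles returning from the Golgi to the endoplasmic reticulum, with Sec22b as their R partner. Use1 read 10.95, 11.30, 10.95 and 11.62 on the GM_IgG arrays and 9.03, 9.54, 9.52 and 9.96 on the GM_MYF5 arrays. In differentiation medium it read 11.79, 12.03, 12.12 and 12.15 with IgG and 10.38, 10.49, 10.42 and 10.89 with anti-MYF5. All anti-MYF5 arrays lay below the IgG arrays of their medium. Use1 was 3.23-fold lower in growth medium (log2 fold change -1.69, SE 0.17, adjusted p = 7.1e-08) and 2.78-fold lower in differentiation medium (-1.48, SE 0.17, adjusted p = 4.9e-07), and its second probe gave -1.51 and -1.52. Bnip1 was lower at -0.53 (SE 0.12) and -0.43 (SE 0.12), and Stx18 at -0.65 (SE 0.14) in differentiation medium. In growth medium Stx18 stood at -0.17 (adjusted p = 0.35). Sec22b stood at 0.02 (SE 0.09) in both media. The Bnip1 calls ended with no scaling (-0.15 and -0.50, adjusted p = 0.57 and 0.053), and the growth medium call also with median scaling (-0.28, adjusted p = 0.21).

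Of 8 tested Q-SNAREs of endosomes, the trans-Golgi network and lysosomes, 3 were higher and 2 lower in growth medium, and 4 and 2 in differentiation medium. The higher shares were 37.5% and 50%, against 26.3% and 27.7% of all tested genes, and the lower share of 25% was near the background of 22.4% and 26.6%. Stx12, of recycling endosomes, was higher by 0.57 (SE 0.11) and 0.76 (SE 0.11). Vti1a, a Qb protein of the trans-Golgi network, was higher by 0.85 (SE 0.12) and 0.75 (SE 0.12) at its brightest probe. Stx17, the syntaxin of autophagosomes, was higher by 0.30 (SE 0.11, adjusted p = 0.027) and 0.31 (SE 0.11, adjusted p = 0.024), and neither call lasted with the Actb gap in the model (0.18, adjusted p = 0.35, and 0.20, adjusted p = 0.25). The growth medium call also ended without GM_IgG array 2 or 3 or GM_MYF5 array 1 or 4, and the other without DM_IgG array 1 or 3 or DM_MYF5 array 3 (adjusted p up to 0.10 and 0.080). Stx7, Stx8, Vti1b and Vamp8 are known to assemble into the complex of late endosome fusion. Of these, Stx8 was lower at -0.98 (SE 0.14) and -0.90 (SE 0.14) and Vti1b at -0.78 (SE 0.13) and -0.58 (SE 0.13). Stx16, which cycles between endosomes and the trans-Golgi network, stood at 0.08 and 0.30 (SE 0.19), uncalled in both media. Stx7 was higher in differentiation medium by 0.53 (SE 0.12) and stood at 0.28 (adjusted p = 0.057) in growth medium. Under median scaling and no scaling Stx7 was no longer called (0.44 and 0.46, adjusted p = 0.063 and 0.095), and Vti1b in growth medium was not under no scaling (-0.54, adjusted p = 0.059).

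Vamp8, the R-SNARE of late endosomes, lysosomes and regulated secretion, was the member farthest below the IgG level in growth medium. Its log2 signal was 9.24, 9.38, 9.16 and 9.45 in GM_IgG and 7.01, 7.51, 7.55 and 7.12 in GM_MYF5. It was 8.54, 8.84, 8.64 and 8.73 in DM_IgG and 7.15, 7.39, 7.35 and 7.43 in DM_MYF5. The anti-MYF5 arrays of the media overlapped, while the IgG arrays of growth medium lay above those of differentiation medium. Vamp8 was 4.03-fold lower with anti-MYF5 in growth medium (log2 fold change -2.01, SE 0.13, adjusted p = 2.5e-10) and 2.57-fold lower in differentiation medium (-1.36, SE 0.13, adjusted p = 5.0e-08). Its second probe, ILMN_2499400, gave -2.04 and -1.30.

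Ykt6, an R-SNARE without a membrane-spanning helix that is held by lipid anchors and acts in the Golgi and in autophagosome fusion, was the member farthest above IgG in growth medium. It read 10.26, 10.93, 10.67 and 11.06 in GM_IgG and 12.57, 12.49, 12.54 and 12.58 in GM_MYF5. In differentiation medium it read 10.86, 11.31, 10.88 and 11.20 with IgG and 12, 12.30, 12.31 and 12.56 with anti-MYF5. The anti-MYF5 arrays stood above all IgG arrays. The fold was 3.53 in growth medium (log2 fold change 1.82, SE 0.15, adjusted p = 3.6e-09) and 2.35 in differentiation medium (1.23, SE 0.15, adjusted p = 7.5e-07), and the second probe gave 1.64 and 1.14.

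Sec22c, a relative of Sec22b in the endoplasmic reticulum, was also higher with anti-MYF5. Its values were 7.10, 7.19, 7.31 and 6.84 in GM_IgG and 8.74, 8.60, 8.34 and 8.08 in GM_MYF5. They were 5.92, 6.16, 5.85 and 6.16 in DM_IgG and 7.41, 7.32, 7.24 and 7.42 in DM_MYF5. The gain over IgG was nearly equal in the media, at 1.33 (SE 0.14, adjusted p = 1.6e-07) and 1.32 (SE 0.14, adjusted p = 2.1e-07). Vamp3, the cellubrevin of recycling endosomes, was higher by 0.71 (SE 0.12) and 0.63 (SE 0.12), the latter call ending with no scaling (0.53, adjusted p = 0.073). Vamp2, the synaptobrevin that carries GLUT4 vesicles, and its relative Vamp1 were higher in differentiation medium by 0.40 (adjusted p = 0.013) and 0.34 (adjusted p = 0.030). With the Actb gap in the model these stood at 0.07 (adjusted p = 0.71) and 0.18 (adjusted p = 0.36). The Vamp1 call also ended without DM_IgG array 1, 3 or 4 or DM_MYF5 array 2 or 3 (adjusted p up to 0.10). Of 2 tested Vamp1 probes the other was uncalled in differentiation medium at 0.19. Vamp7 of lysosomes stood at -0.18 and 0.01.

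The 3 tested Qbc light chains were also called in both directions. The shares were 66.7% higher and 33.3% lower in each medium, against 26.3% and 22.4%, then 27.7% and 26.6%, of all tested genes. Snap23, the widespread plasma membrane form, was higher by 0.58 (SE 0.13) and 0.50 (SE 0.13), and Snap29, of endosomes and autophagosomes, by 0.63 (SE 0.13) and 0.42 (SE 0.13). Both differentiation medium calls ended with median scaling (0.39 and 0.33, adjusted p = 0.18 and 0.26). Snap47, a less studied relative, read 6.78, 7.13, 6.86 and 7.44 in GM_IgG and 5.88, 6.15, 6.45 and 6.45 in GM_MYF5. In differentiation medium it read 8.27, 8.30, 8.37 and 8.43 with IgG and 6.90, 7.03, 7.07 and 7.48 with anti-MYF5. All anti-MYF5 arrays were below the IgG arrays of their medium. Snap47 was 1.77-fold lower in growth medium (-0.82, SE 0.16, adjusted p = 2.3e-04) and 2.34-fold lower in differentiation medium (-1.22, SE 0.16, adjusted p = 2.2e-06). The growth medium call ended with no scaling (-0.44, adjusted p = 0.068).

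**Figure D2:**
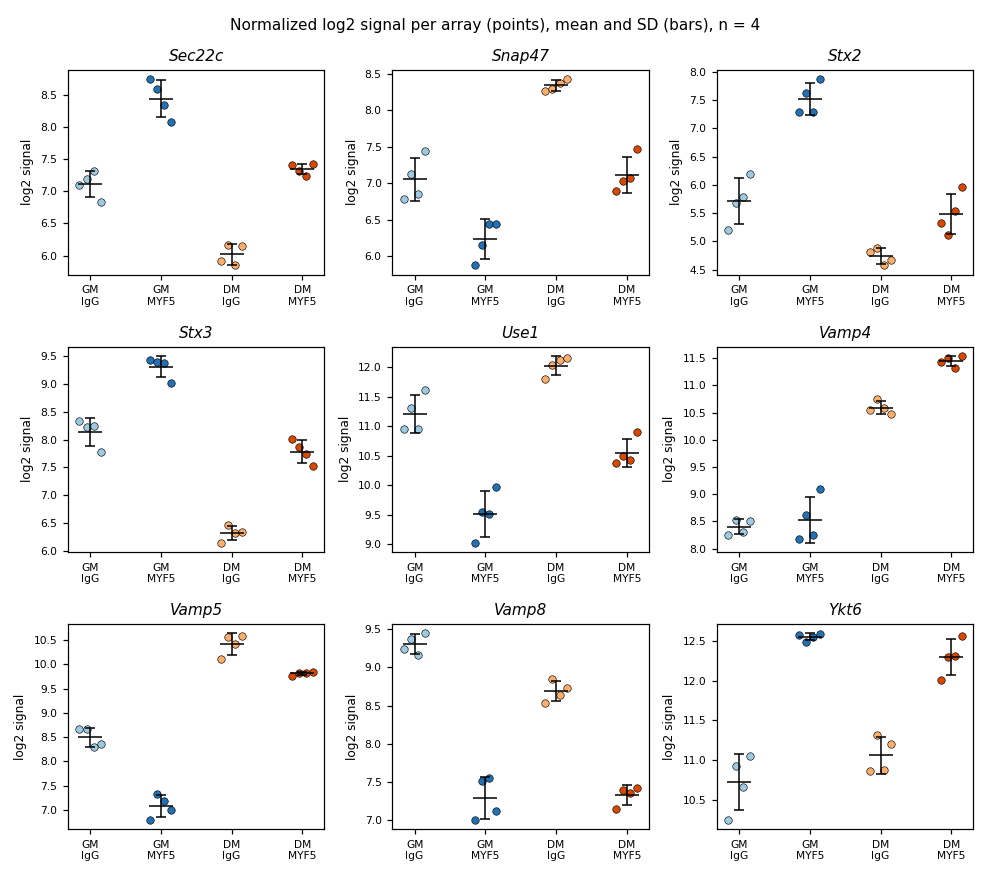
Normalized log2 signal (y axis) of 9 SNARE genes on each array (points) in the 4 groups (x axis), with the mean and SD of 4 arrays as bars. Ykt6, Sec22c, Stx2 and Stx3 are higher with anti-MYF5 in each medium, Use1, Vamp8, Vamp5 and Snap47 are lower, and the Vamp4 points of the antibodies overlap in growth medium and not in differentiation medium.

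Whether the change over IgG differed with the medium was tested directly as the differentiation minus growth medium difference. It passed for 3 SNARE genes upward and 1 downward, or 8.82% and 2.94% of 34, against 2.48% and 3.3% of all tested genes. Stx2 had the downward difference, at -1.05 (SE 0.27, adjusted p = 0.027). Its probe lay near background on the DM_IgG arrays, with detection p of 0.044, 0.028, 0.139 and 0.084. Signal there limits the fold in differentiation medium, and its part in the difference was not tested. Vamp5, Vamp4 and Vamp8, all R-SNAREs, had differences of 0.82 (SE 0.19, adjusted p = 0.014), 0.72 (SE 0.21, adjusted p = 0.0497) and 0.65 (SE 0.19, adjusted p = 0.044).

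Vamp5, named myobrevin for its expression in skeletal muscle and heart, was lower with anti-MYF5 in both media, by less in differentiation medium. It read 8.67, 8.66, 8.30 and 8.36 in GM_IgG and 6.80, 7.34, 7.19 and 6.99 in GM_MYF5. In differentiation medium it read 10.11, 10.57, 10.41 and 10.59 with IgG and 9.77, 9.83, 9.82 and 9.85 with anti-MYF5. No groups overlapped. The fold below IgG was 2.68 in growth medium (-1.42, SE 0.13, adjusted p = 2.3e-08) and 1.52 in differentiation medium (-0.60, SE 0.13, adjusted p = 6.8e-04).

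Vamp4, an R-SNARE of the trans-Golgi network, differed between the antibodies in differentiation medium. It read 8.26, 8.53, 8.30 and 8.51 in GM_IgG and 8.17, 8.61, 8.25 and 9.10 in GM_MYF5, ranges that overlap. In differentiation medium it read 10.54, 10.75, 10.59 and 10.47 with IgG and 11.43, 11.49, 11.32 and 11.53 with anti-MYF5, ranges that do not. The changes were 0.13 (SE 0.15, adjusted p = 0.49) and 0.86 (SE 0.15, adjusted p = 6.4e-05). These differences depended on single arrays and on scaling. The Vamp4 difference ended when any 1 of 13 of the 16 arrays was left out (adjusted p up to 0.107) and was kept without DM_IgG array 2, GM_IgG array 4 or GM_MYF5 array 4. The Vamp8 difference ended without any 1 of 10 arrays, which were DM_IgG 1, 3 and 4, DM_MYF5 2, 3 and 4, GM_IgG 1 and 2, and GM_MYF5 1 and 4 (adjusted p up to 0.098). That of Stx2 ended without DM_IgG 1, DM_MYF5 1 or 2, or GM_IgG 1 or 2 (adjusted p up to 0.072). With median scaling the Vamp4 and Vamp8 differences stood at 0.34 and 0.37 (adjusted p = 0.469 and 0.374). The Vamp5 difference passed without each array in turn but not with median scaling (0.50, adjusted p = 0.25), no scaling (0.39, adjusted p = 0.40) or the deposited z-scores (adjusted p = 0.055).

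The same arrays show how SNARE RNAs differed between the media within each kind of precipitate. In the IgG precipitate 11 of 34 SNARE genes were higher in differentiation medium and 8 lower, or 32.4% and 23.5%, against 29.5% and 34% of all tested genes. In the MYF5 precipitate 12 were higher and 6 lower, or 35.3% and 17.6%, against 28.9% and 32.7%. The medians over SNARE genes were 0.11 and 0.12, against -0.06 and -0.06 over all genes. With median scaling the calls were 13 higher and 4 lower with IgG and 7 and 7 with anti-MYF5, and the anti-MYF5 median over SNARE genes was -0.04, where that of all probes was -0.15. In bulk precipitates without input RNA, a smaller share of cells that hold an RNA, less of it per cell and less of it recovered on the beads cannot be told apart.

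Vamp4 and Vamp5 rose most in differentiation medium in both precipitates, while Stx3 fell most with IgG and Stx2 fell most with anti-MYF5. Vamp4 was 4.56-fold higher with IgG (log2 fold change 2.19, SE 0.15, adjusted p = 3.9e-11) and 7.52-fold higher with anti-MYF5 (2.91, SE 0.15, adjusted p = 3.0e-13). Vamp5 was 3.79-fold higher (1.92, SE 0.13, adjusted p = 4.6e-11) and 6.68-fold higher (2.74, SE 0.13, adjusted p = 1.1e-13). The summed signal of muscle markers rose beside them, and its part in these values was not tested. Stx3 was 3.53-fold lower with IgG (-1.82, SE 0.14, adjusted p = 3.0e-10) and 2.87-fold lower with anti-MYF5 (-1.52, SE 0.14, adjusted p = 5.8e-09). Stx2 was 1.97-fold lower (-0.98, SE 0.19, adjusted p = 1.4e-04) and 4.09-fold lower (-2.03, SE 0.19, adjusted p = 7.5e-09).

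The other changes between media ran through each role. Snap47 was higher in differentiation medium by 1.29 (SE 0.16) with IgG and 0.89 (SE 0.16) with anti-MYF5, Use1 by 0.82 (SE 0.17) and 1.03 (SE 0.17), Vamp1 by 0.78 (SE 0.13) and 0.91 (SE 0.13), and Vamp2 by 0.68 (SE 0.13) and 0.86 (SE 0.13). Sec22c was lower at -1.09 (SE 0.14) in both precipitates, Stx1a at -0.57 (SE 0.14) and -0.75 (SE 0.14), and Bnip1 at -0.52 (SE 0.12) and -0.42 (SE 0.12). With median scaling the IgG calls of Stx1a (-0.28, adjusted p = 0.17), Bnip1 (-0.28, adjusted p = 0.19), Stx6 (-0.24, adjusted p = 0.40) and Vti1a (-0.20, adjusted p = 0.39) ended. The anti-MYF5 calls of Bet1l, Stx7, Stx8, Stx12 and Stx17 also ended then, with adjusted p of 0.17 to 0.80. Vamp8 was lower with IgG at -0.61 (SE 0.13, adjusted p = 3.6e-04), a call that ended with no scaling (-0.33, adjusted p = 0.19), and stood at 0.03 (adjusted p = 0.84) with anti-MYF5. Bet1l, Stx8, Stx17 and Stx16 were higher in both precipitates by 0.33 to 0.66, and Vti1a lower at -0.40 and -0.51, each at the brightest probe. Other probes differed. Of 4 Stx8 probes 1 was higher and 1 lower with IgG and 3 and 1 with anti-MYF5, and for Vti1a 1 of 3 probes was called in each precipitate. The lower Stx8 probe, ILMN_3064056, lay near background. It was detected on 1 GM_IgG array, all 4 GM_MYF5 arrays and no differentiation medium array. Measured against a floor of detected signal, its fall was at least 1.02-fold with IgG and 1.23-fold with anti-MYF5. Stx5a was called higher with IgG (0.42, against 0.20 with anti-MYF5, uncalled) and Stx6 lower (-0.42, against -0.28, uncalled). Stx12 and Stx7 were called higher with anti-MYF5 (0.27 and 0.46, against 0.08 and 0.21 with IgG, uncalled). For none of these 4 genes did the difference between precipitates pass its test. The IgG call ended without any 1 of 10 arrays for Stx8, 7 for Stx16, 2 for Stx6 and 1 for Stx17, and the anti-MYF5 call without any 1 of 6 for Stx12 and 2 for Stx8, with adjusted p up to 0.17 and 0.12. Stx4a, Sec22a, Sec22b, Vamp7, Ykt6, Vamp3, Snap23, Snap29, Gosr1, Gosr2, Bet1, Stx18 and Vti1b passed in neither precipitate at the brightest probe. Of 4 Gosr2 probes 1 was lower with IgG and 2 with anti-MYF5. With anti-MYF5 2 of 3 Sec22a probes were lower, and with IgG 1 of 2 Snap23 probes was. These probes, ILMN_2742128 and ILMN_1215824 of Sec22a and ILMN_1217275 of Snap23, lay near background, where signal limits the fold. With the Actb gap in the model Vamp7 (0.66 and 0.76) and Snap23 (0.54 and 0.40) were called higher in both precipitates. Vti1b was then called higher and Stx18 and Ykt6 lower with anti-MYF5.

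**Figure D3:**
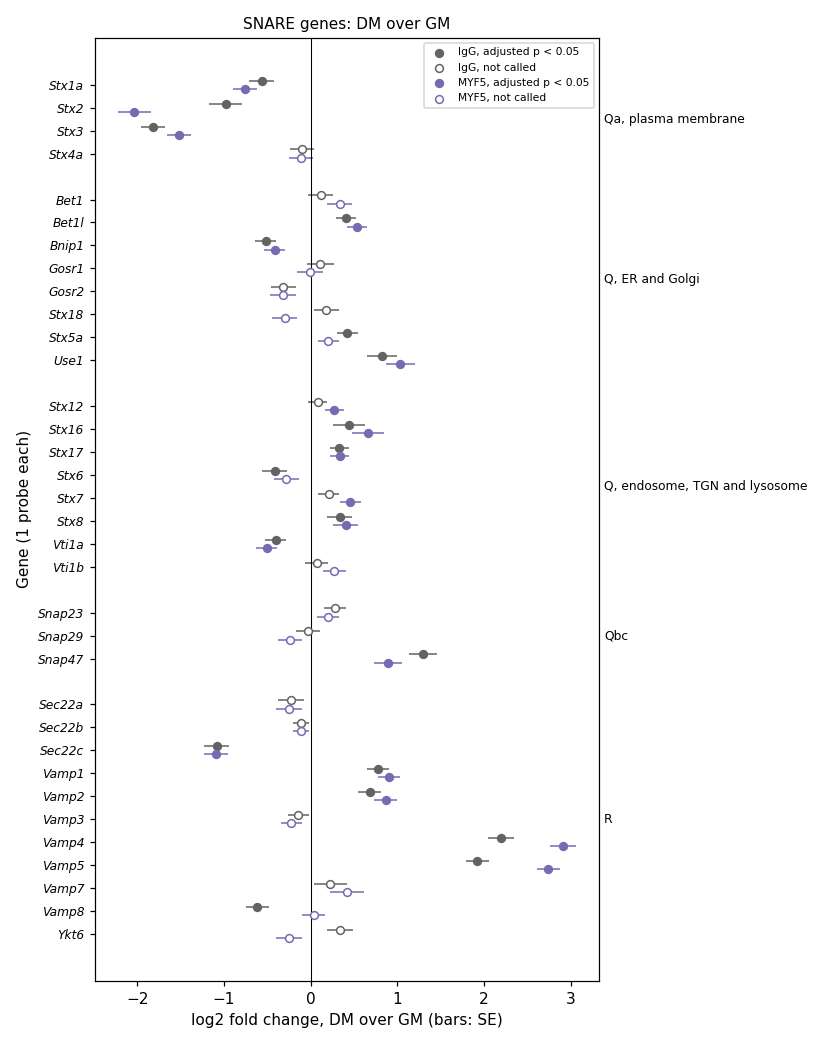
Log2 fold change of differentiation over growth medium (x axis, bars are the SE) for 34 SNARE genes in the IgG precipitate (grey) and the MYF5 precipitate (purple), with filled points for adjusted p under 0.05. Vamp4 and Vamp5 lie at 1.92 to 2.91, apart from the other R-SNAREs. Stx3 and Stx2 lie at -2.03 to -0.98, and 3 of the 4 plasma membrane syntaxins, with Stx1a, were called lower in each precipitate.

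The DNA before the start of the 3 members that rose or fell most with IgG is shown because MYF5 and its relatives bind the E-box, CANNTG, in muscle promoters. Each line gives the 250 bases before the annotated start in RefSeq, build GRCm38.p6, with E-boxes in capitals.
Vamp4, chr1:162570265-162570514, plus strand: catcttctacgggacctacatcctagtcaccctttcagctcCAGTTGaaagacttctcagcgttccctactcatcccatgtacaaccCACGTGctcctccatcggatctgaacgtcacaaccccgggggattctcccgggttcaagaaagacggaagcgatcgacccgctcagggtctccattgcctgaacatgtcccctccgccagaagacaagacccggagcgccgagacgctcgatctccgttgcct
Vamp5, chr6:72380469-72380718, minus strand: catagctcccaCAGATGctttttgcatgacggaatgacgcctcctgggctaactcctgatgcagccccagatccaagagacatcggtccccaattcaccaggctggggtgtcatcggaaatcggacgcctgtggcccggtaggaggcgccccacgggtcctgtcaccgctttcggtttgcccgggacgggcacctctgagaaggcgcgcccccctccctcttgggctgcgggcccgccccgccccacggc
Stx3, chr19:11819404-11819653, minus strand: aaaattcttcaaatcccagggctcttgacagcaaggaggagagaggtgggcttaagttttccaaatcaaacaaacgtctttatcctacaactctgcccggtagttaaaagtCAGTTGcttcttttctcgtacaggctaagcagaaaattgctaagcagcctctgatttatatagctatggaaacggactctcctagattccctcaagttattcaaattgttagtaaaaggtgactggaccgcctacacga
The first Vamp4 window holds 2 E-boxes, and a second Vamp4 window, chr1:162570578-162570827, has none. Vamp5 and Stx3 hold 1 each. None of these E-boxes has the form CAGCTG, which was present in 13% of all windows and in 6 of 39 SNARE windows. CANNTG reads the same on both strands, so 1 scan covers both. At least 1 E-box was present in 66.2% of all 32851 promoter windows of that length and 2 or more in 31.8%, and in 25 of 39 windows of the 32 SNARE genes listed. These matches are letters in a sequence, and the arrays measured recovered RNA. In the RefSeq gene order Vamp5 and Vamp8 lie on chromosome 6 with 1 annotated gene between them.

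**Figure D4:**
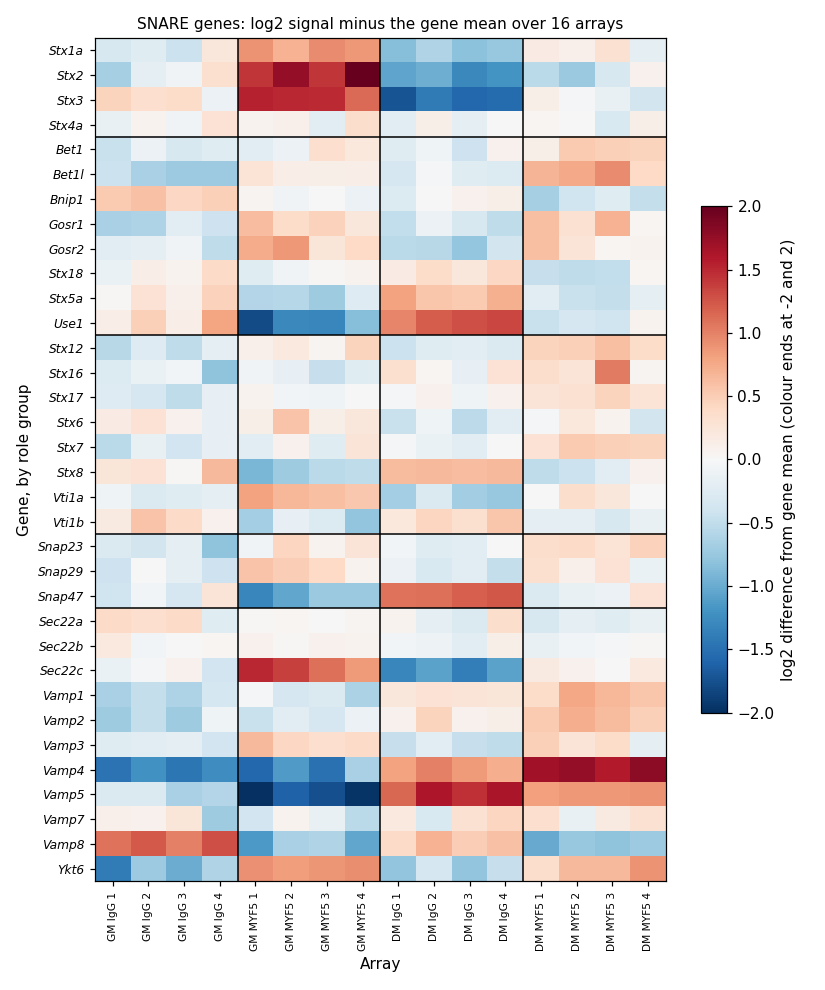
Log2 signal minus the gene's mean over 16 arrays (colour, from -2 in blue to 2 in red) for 34 SNARE genes (rows, by role) on 16 arrays (columns, by group). Stx2, Stx3 and Sec22c are red on the GM_MYF5 arrays and blue on the DM_IgG arrays, and Vamp4 and Vamp5 are blue on all growth medium arrays and red on all differentiation medium arrays.

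Several tested probes were present for 15 of the 34 genes, and some of these disagreed. In growth medium the probes were all called alike or all uncalled for 8 genes, some were uncalled for 5, and calls were opposite for 2, Stx8 and Vti1a. For Vti1a, ILMN_2480180 and ILMN_2925275 were higher by 0.85 and 0.59, while ILMN_2484918 was lower at -1.11 (SE 0.14, adjusted p = 1.0e-06). In differentiation medium the same 3 probes gave 0.75, 0.44 and -1.11. The direction given for Vti1a thus holds for 2 of its 3 probes. For Stx8, 3 probes were lower at -0.98, -1.62 and -1.43, and ILMN_3064056, detected on 1 GM_IgG array and all 4 GM_MYF5 arrays, was higher by 0.27 (adjusted p = 0.022).

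Probes of Gosr2 spread from 0.03 to 1.66 in growth medium, with ILMN_2600339 uncalled and the other 3 higher. Of 3 Sec22c probes 2 were higher in each medium. The other, ILMN_1248456, was uncalled at 0.20 and 0.18, and was detected on growth medium arrays alone. Stx6, a Qc protein of the trans-Golgi network, was uncalled at its brighter probe (0.16 and 0.30) and higher at ILMN_1230058 by 0.61 (adjusted p = 0.012) and 0.73 (adjusted p = 0.0032). Sec22a was uncalled at its brightest probe. At ILMN_1215824, not detected on any GM_IgG array and detected on all 4 GM_MYF5 arrays, it was at least 1.23-fold higher (adjusted p = 1.0e-03). This bound compares the GM_MYF5 mean with a floor, which on each GM_IgG array is the dimmest signal called detected or, if brighter, the signal of ILMN_1215824 itself. Snap23 was higher at its brighter probe and stood at -0.24 (adjusted p = 0.068) at ILMN_1217275, detected on 10 of 16 arrays. Both probes of Vamp3, Use1, Vamp8, Ykt6, Stx5a and Vti1b, and both tested probes of Stx3, were called in 1 direction in each medium.

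**Figure D5:**
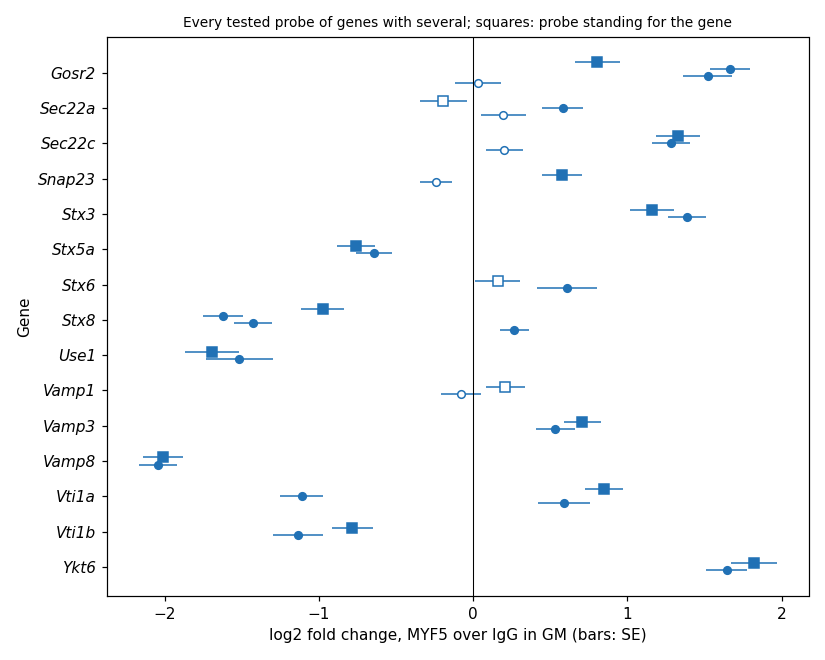
Log2 fold change of anti-MYF5 over IgG in growth medium (x axis, bars are the SE) for each tested probe of the 15 SNARE genes (rows) with several, with squares for the probe that stands for the gene and filled marks for adjusted p under 0.05. Probes of Vti1a lie on both sides of 0, from -1.11 to 0.85, while both Vamp8 probes lie near -2.

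Partners of SNAREs were read from lists of genes that regulate, dissolve or precede the fusion bundle. Tethers catch a vesicle before SNAREs engage. With anti-MYF5, 3 of 34 tested tethers were higher and 15 lower in growth medium (median -0.23), and in differentiation medium 4 and 14 (median -0.29). These are 8.82% and 44.1%, then 11.8% and 41.2%, against 26.3% and 22.4%, then 27.7% and 26.6%, of all tested genes. Trappc2l and Trappc1, of the TRAPP complex, were lower at -1.42 (SE 0.10) and -1.19 (SE 0.12) in growth medium, where Cog3, of the Golgi COG complex, was higher by 1.11 (SE 0.12). In differentiation medium Exoc7 and Exoc3, of the exocyst at the plasma membrane, were lower at -1.37 (SE 0.14) and -1.25 (SE 0.13), and Cog3 was higher by 1.27 (SE 0.12). Between media, 19 tethers were higher and 5 lower in differentiation medium with IgG and 21 and 2 with anti-MYF5, led by Exoc4 at 1.49 (SE 0.20) and 1.39 (SE 0.20). The tether shares were 55.9% higher and 14.7% lower with IgG and 61.8% and 5.88% with anti-MYF5, against 29.5% and 34%, then 28.9% and 32.7%, of all tested genes.

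Of 4 genes that take used SNARE bundles apart, the SNAP adaptors Napg and Napb were higher with anti-MYF5 by 0.89 (SE 0.12) and 0.53 (SE 0.13) in growth medium and by 0.38 (SE 0.12) and 0.47 (SE 0.13) in differentiation medium. The ATPase Nsf stood at 0.24 and -0.17, uncalled in both. Among 8 Sec1/Munc18 proteins and other syntaxin binders, 0 were higher and 2 lower in growth medium and 1 and 2 in differentiation medium, where the lower share of 25% in both media was near the 22.4% and 26.6% of all tested genes. Stxbp2, which escorts syntaxins in secretory cells, was lower at -0.82 (SE 0.12) and -0.75 (SE 0.12), and Vps45, of endosomes, at -0.49 (SE 0.13) and -0.63 (SE 0.13). Txlnb, a muscle taxilin, was higher in differentiation medium by 4.87 (SE 0.10) with IgG and 4.73 (SE 0.10) with anti-MYF5. For 10 tested calcium sensors and related regulators the counts over IgG were 5 higher and 1 lower in growth medium, and 6 and 3 in differentiation medium. These are 50% and 10%, then 60% and 30%, beside all-gene shares of 26.3% and 22.4%, then 27.7% and 26.6%. Dysf, the membrane repair protein dysferlin of muscle, was lower at -0.95 (SE 0.13) in differentiation medium and stood at -0.09 in growth medium, with a difference of -0.86 (SE 0.18) that passed its test. Between media Dysf was higher by 2.82 (SE 0.13) with IgG and 1.96 (SE 0.13) with anti-MYF5, while Syt13, a synaptotagmin, was lower at -2.16 (SE 0.16) and -2.18 (SE 0.16).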

How the data were processed

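RNA from 16 precipitates was read on 16 Illumina arrays, grouped by the sample titles into 4 groups of 4. Per the file headers, each deposited array has an intensity column, not normalized between arrays, and a column of detection p-values. Per the submitters' processing notes the software was GenomeStudio 2011.1. The authors also deposited a score per probe, used as an alternative. On inspection it matched the z-score of an array's log10 signal to within 5.0e-10. No source used here names a chip or slide.

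Intensities were background-corrected with limma's nec, which infers controls from detection p (offset 16), put on the log2 scale and quantile normalized (limma 3.58.1, R 4.3.3), so each change is measured against the rest of the recovered RNA. A linear model over 16 arrays with 12 residual degrees of freedom (lmFit, eBayes with trend) gave the 5 comparisons, adjusted by Benjamini-Hochberg over 13884 probes. The number of arrays limits the precision. Symbols were updated to current ones by Entrez identifier (23962 probes) or accession (9 probes), and 1719 probes had none. A gene stands by its tested probe of highest mean log2 signal. Values on every array were given for the 6 largest called changes over IgG in each medium, the called differences between media, and the 4 largest called changes between media in each precipitate. Up to 3 called genes of largest change were named per partner list and comparison. The members, lists and rules were chosen with earlier results of these data known. The fit was tested on simulated data, with changes planted in GM_MYF5 or in DM_MYF5. Over IgG, 94 and 96 of 100 planted log2 changes of 1 were called, and 49 and 48 of 100 changes of 0.5. For the difference between media, 68 and 74 of 100 were called at 1 and 11 of 100 at 0.5 in each case. An uncalled difference can thus be a missed one. Alternatives were other scalings, backgrounds, filters and probes, a replicate block, the Actb gap as a covariate, and each array left out.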

Additional observations from a re-analysis of the deposited data

Results flagged for a closer look

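The change of anti-MYF5 over IgG differed between the media for 4 SNARE genes by the test of that difference, in limma with Benjamini-Hochberg adjustment. Of 34 SNARE genes 8.82% were higher and 2.94% lower in this test, against 2.48% and 3.3% of all tested genes. The differences, differentiation minus growth medium, were -1.05 for Stx2, 0.72 for Vamp4, 0.82 for Vamp5 and 0.65 for Vamp8. For Stx2, Vamp5 and Vamp8 the sign against IgG was the same in both media and the size differed. Only the Stx2 call lasted under all 6 other scalings and backgrounds, and only the Vamp5 call lasted without each array in turn. Stx2 lay near background on the DM_IgG arrays.

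One array stood apart from the others of its group in 1 of 36 groups examined, which are 9 genes in 4 groups. The gap to the nearest array, divided by the group's range, exceeded Dixon's critical value for 4 arrays. Stx3 read 9.02 on GM_MYF5 array 4, against 9.38 to 9.42 on the other 3 arrays. Chance flags about 1 in 20 such groups.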

How the results depend on the processing

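No SNARE gene with per-array values above reversed under any alternative: of 935 values, 890 kept direction and call and 45 lost the call. Vti1a, not among these genes, turned to -1.11 in both media when its probe of largest variance stood for it. Scaling moved the counts most. With median scaling, 12 genes were higher over IgG in differentiation medium, the difference between media was called higher for 0 and lower for 3, 4 were lower in differentiation medium with IgG and 7 were higher with anti-MYF5. With no scaling, 4 were lower over IgG in growth medium and 11 higher in differentiation medium, the difference was higher for 0 and lower for 3, and between media 3 were lower with IgG and 7 higher with anti-MYF5. Median scaling shifted the median of all probes to 0.19 in growth medium and -0.27 for the difference, and no scaling to 0.32 and -0.38; the cause of the lost calls was not tested. Both settings added Ykt6 (-0.89 and -1.0) and Stx18 (-0.84 and -0.95) to the lower differences. For the difference, the deposited scores gave 1 higher and 3 lower, testing all probes 1 and 0, and testing probes detected on all 16 arrays, which drops Stx2, 1 and 0.

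Leaving out each array in turn gave 13 to 16 higher and 8 to 9 lower over IgG in growth medium and 17 to 20 higher and 9 lower in differentiation medium. The difference ranged from 1 to 3 higher and 0 to 2 lower. Between media it gave 9 to 12 higher and 7 to 10 lower with IgG, and 10 to 14 and 6 to 8 with anti-MYF5. Same-numbered arrays of 1 medium deviated together at r of 0.01 to 0.61 in growth medium and 0.02 to 0.42 in differentiation medium. In each medium 3 of 4 were best matched to their own number, so a pairing within a medium remains possible. The labels do not say that the numbers pair the samples. The main model therefore left them unpaired, and a replicate block was fitted as an alternative. With a replicate block the difference was lower for 2 genes, as Ykt6 was added (-0.59, adjusted p = 0.031), and all 22, 28, 4, 19 and 18 calls of the 5 comparisons remained. The block also added Bet1 and Stx7 over IgG in growth medium (adjusted p = 0.033 and 0.025) and Stx6 in differentiation medium (0.036). Between media it added Gosr2 and Ykt6 with IgG and Bet1, Gosr2, Stx18 and Stx6 with anti-MYF5 (adjusted p of 0.015 to 0.041). Probes ILMN_3064056 of Stx8, ILMN_1215824 and ILMN_2742128 of Sec22a and ILMN_1217275 of Snap23 lie near background, where signal limits the fold. So does the Stx2 probe ILMN_2657575 on the DM_IgG arrays.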
